A study of Homo sapiens with 2 samples.

Results

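The transcripts described here are 10 immediate-early and other short-lived response mRNAs, FOS, JUN, JUNB, JUND, EGR1, IER2, CYR61, CTGF, BTG2 and MYC. They were found by exact match of the gene symbol, and all 10 of 10 were among the 13075 genes of the expression table. The RNA came from HEK293 cells, a human embryonic kidney line, at passage 15. The cells had been transfected with FLAG-tagged TOP3B that carries the R338W substitution, a change known to leave the enzyme covalently bound to its substrates, so both libraries come from cells with that protein. The RIP library (RNA immunoprecipitation) holds RNA recovered with the monoclonal anti-FLAG M2 antibody, and the INPUT library was made with no antibody. There was 1 library of each kind, so every difference below is between 2 libraries, has no replicate check and carries no p-value. No mock RIP from untransfected cells was analysed here, so non-specific recovery has no measured level.

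Immediate-early genes are transcribed within minutes of a growth factor or stress signal, without new protein synthesis, and many of their mRNAs are degraded soon after. Much of that rapid decay is known to act through AU-rich elements, stretches of the 3′ untranslated region (3′ UTR) built around the pentamer AUUUA, which bind proteins that recruit or block the deadenylation machinery. TOP3B, the immunoprecipitated protein, is a topoisomerase that acts on both DNA and RNA and works on mRNAs with the scaffold protein TDRD3. The series title states its aim as finding RNAs that hold TOP3B cleavage complexes.

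Shown are AU-rich pentamers of the members with the highest RIP to INPUT ratios (CYR61, FOS and JUNB) and the lowest (EGR1 and BTG2). They are shown because the annotated decay element is the feature the members are known for. IER2, the next lowest by ratio, holds no pentamer. The other members, among them MYC with the highest pentamer density, are not shown. Each line is a window of 30 bases of the annotated 3′ UTR (GENCODE release 29, GRCh38), written 5′ to 3′ with T for U. The pentamer ATTTA is in capitals. The window shown is the one that holds the nonamer TTATTTATT where there is one, and otherwise the one with the most pentamers.
FOS (chr14:75282057-75282086, plus strand): ttgtgtttttaATTTATTTAttaagatgga
CYR61 (chr1:85583676-85583705, plus strand): taaccATTTAataaagaaatATTTAcctaa
JUNB (chr19:12793059-12793088, plus strand): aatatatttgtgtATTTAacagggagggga
EGR1 (chr5:138469063-138469092, plus strand): actgaaaatgtaaATTTAtaaatatattca
BTG2 (chr1:203307527-203307556, plus strand): taaatgaagagctATTTAtatatattattt
FOS holds 2 overlapping pentamers, with the nonamer lying across them, and CYR61 holds 2 separate ones. JUNB, EGR1 and BTG2 hold 1 each in these windows.

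Values are FPKM, read fragments per transcript kilobase relative to all fragments of that library. The ratio is log2((RIP + 1)/(INPUT + 1)), on which 1 is a 2-fold difference, and the comparison took in genes that reached 5 FPKM in either library. The libraries held an estimated 24700000 fragments (RIP) and 15200000 fragments (INPUT). Of 6 markers fixed for HEK293 cells 5 were measured, with vimentin (VIM) at 679 FPKM in RIP against 544 FPKM in INPUT, and ratios of 0.32 to 0.58. Of 5 fibroblast markers 1 was in the table (COL1A1, 7.45 FPKM in RIP against 2.19 FPKM in INPUT) and of 6 kidney tubule markers 1 (LRP2, 5.49 FPKM in RIP against 1.96 FPKM in INPUT). The markers of blood and liver cells gave no values here, and the part of such cells in the results was not tested. The bait transcript TOP3B stood at 30666 FPKM in RIP against 15062 FPKM in INPUT.

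As a set, the 10 mRNAs leaned to the RIP. Their median ratio was 0.47, against 0.13 over the 11990 genes tested and 0.15 over the 10513 protein-coding genes among them. Ratios were above 0 for 8 members and below 0 for EGR1 and BTG2, over a range of -0.67 to 1.15. In the background, 7040 of the 11990 genes tested and 6390 of the 10513 protein-coding genes were also above 0. CYR61 and FOS passed the limit of 2-fold higher in RIP, and 0 members passed it downwards. In the background, 4.90% of all genes and 3.65% of protein-coding genes passed it upwards, and 2.50% of all genes and 0.533% of protein-coding genes downwards. At a 1.5-fold limit 3 members were higher (CYR61, FOS and JUNB) and 1 was lower (BTG2). That limit was passed upwards by 19.9% of all genes and 19.2% of coding genes, and downwards by 10.2% and 7.01%, so the share of members past it lay not far from the background.

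The count past 2-fold depended on how the libraries were scaled. Centring on the median gene shifted every ratio by 0.13 downwards, which left CYR61 at 1.02 and FOS at 0.96. With each library scaled to its summed protein-coding values, CYR61 had 0.97 and FOS 0.91, so no member was past the limit. The same scalings turned the balance over all genes, where 588 higher and 300 lower genes as deposited became 365 and 450 after centring.

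**Figure D1:**
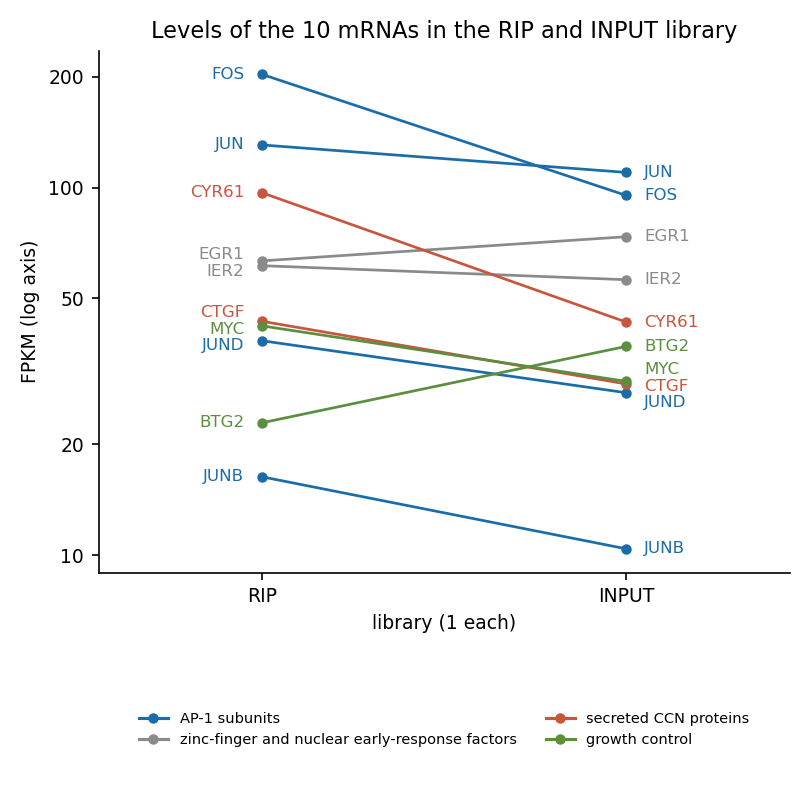
FPKM of each of the 10 mRNAs in the RIP library (left) and the INPUT library (right), on a log axis, with a line joining the 2 values of a gene and colours for their roles. Lines of 8 genes slope down from RIP to INPUT, most steeply for CYR61 and FOS, and those of EGR1 and BTG2 slope up.

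The AP-1 subunits included the most abundant members. AP-1 is a dimer of basic leucine zipper proteins in which FOS pairs with a JUN protein, while JUN, JUNB and JUND can also pair with each other. FOS (ENSG00000170345.9, GRCh38 chromosome 14, 75278774 to 75282230, plus strand, 4 exons) stood at 203 FPKM in RIP against 95.2 FPKM in INPUT, a ratio of 1.09. That ratio lay at percentile 97.6 of protein-coding genes. FOS was the highest member by level in the RIP, whereas JUN was the highest in the INPUT.

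JUN (ENSG00000177606.6, chromosome 1, 58780788 to 58784327, minus strand, 1 exon), the main transactivating partner of FOS, stood at 131 FPKM in RIP against 109.9 FPKM in INPUT. Its ratio of 0.25 was near the middle of coding genes, at percentile 57.5. The level of FOS was thus 1.56 times that of JUN in RIP, against 0.866 times in INPUT. The mRNAs of the classical dimer partners did not keep their proportion between the libraries.

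JUND (ENSG00000130522.5, chromosome 19, 18279760 to 18281622, minus strand, 1 exon), the subunit known for steady rather than induced expression, stood at 38.3 FPKM in RIP against 27.7 FPKM in INPUT, a ratio of 0.46. JUNB (ENSG00000171223.5, chromosome 19, 12791496 to 12793315, plus strand, 1 exon), which often counteracts JUN, was the lowest member in both libraries, at 16.3 FPKM in RIP against 10.4 FPKM in INPUT, a ratio of 0.60. JUNB lies within HOOK2, which is annotated on the opposite strand and shares 259 exon bases with it. HOOK2 stood at 20.8 FPKM in RIP against 10.0 FPKM in INPUT. Libraries were stranded, but whether strand was used in counting is not given in the sources used here, so fragments of the shared bases may count for either gene. The gene spans of CTGF and IER2, introns included, overlap those of annotated antisense genes on the opposite strand by 428 and 1123 bases, for which no values were used here. The order of the JUN family by level, JUN over JUND over JUNB, was the same in both libraries. JUN exceeded JUNB 8.0-fold in RIP against 10.6-fold in INPUT.

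EGR1 and IER2, both induced along with FOS through serum response factor, lay close to the INPUT. EGR1 (ENSG00000120738.7, chromosome 5, 138465490 to 138469315, plus strand, 2 exons), a zinc-finger activator of growth-response genes, stood at 63.2 FPKM in RIP against 73.5 FPKM in INPUT, a ratio of -0.21 (percentile 23.8 of coding genes). IER2 (ENSG00000160888.6, chromosome 19, 13150415 to 13154908, plus strand, 2 exons), a nuclear protein of the early response, stood at 61.3 FPKM in RIP against 56.1 FPKM in INPUT. Its ratio of 0.12 matched the median of all genes and came to -0.003 after centring, so its direction depends on the scaling. FOS exceeded EGR1 3.21-fold in RIP against 1.29-fold in INPUT.

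The CCN proteins CYR61 and CTGF are secreted matricellular proteins, induced by serum and by the YAP/TEAD pathway, that bind integrins. CYR61 (ENSG00000142871.15, chromosome 1, 85580761 to 85583962, plus strand, 5 exons) had the highest ratio of the members, with 96.7 FPKM in RIP against 43.0 FPKM in INPUT, a ratio of 1.15 at percentile 98.3 of coding genes. CTGF (ENSG00000118523.5, chromosome 6, 131948176 to 131951373, minus strand, 5 exons) stood at 43.2 FPKM in RIP against 29.2 FPKM in INPUT, a ratio of 0.55. CYR61 exceeded CTGF 2.24-fold in RIP against 1.47-fold in INPUT. Both mRNAs have 5 exons and nearly equal lengths of 2290 and 2339 bases, but differ in the ratio by more than the counting error, whose 95% exact binomial interval reached at most 0.11 either way for them.

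BTG2 and MYC are linked to opposite outcomes for cell growth. BTG2 (ENSG00000159388.5, chromosome 1, 203305491 to 203309602, plus strand, 2 exons), an antiproliferative p53 target that recruits the CCR4-NOT deadenylase, was the lowest member by ratio. It stood at 22.9 FPKM in RIP against 37.0 FPKM in INPUT, a ratio of -0.67 at percentile 4.7 of coding genes. MYC (ENSG00000136997.15, chromosome 8, 127735434 to 127741434, plus strand, 3 exons), a growth-promoting transcription factor, stood at 42.0 FPKM in RIP against 29.7 FPKM in INPUT, a ratio of 0.49. MYC thus lay with CTGF and JUND, whose levels and ratios were close to its own. The neighbours in that part of the order, JUND at 0.46, MYC at 0.49, CTGF at 0.55 and JUNB at 0.60, had overlapping counting intervals.

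**Figure D2:**
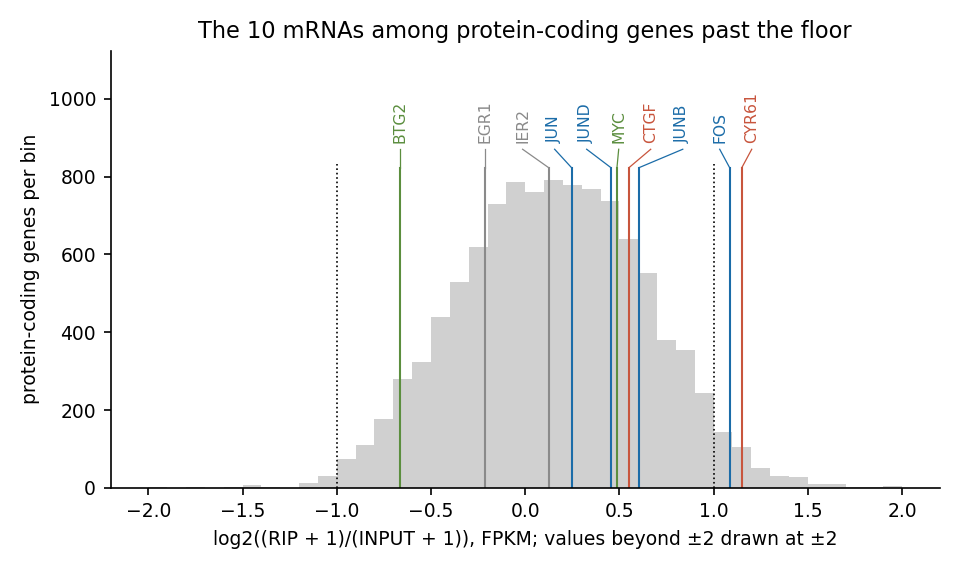
Histogram of the log2 ratio of RIP to INPUT over 10513 protein-coding genes in bins of 0.1, with a coloured line for each of the 10 mRNAs and dotted lines at the 2-fold limits. CYR61 and FOS lie past the upper limit, 4 members lie between 0.46 and 0.60, and BTG2 lies in the lower tail.

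Counting error was small for all of them. Estimated fragments ran from 666 (JUNB) to 10877 (JUN) in the RIP and from 262 (JUNB) to 5641 (JUN) in the INPUT. The widest 95% interval of a ratio from counting alone was -0.21 to 0.21 around the value, for JUNB. These fragment numbers are estimates from annotated lengths and cover counting error only, not the spread between experiments, which 1 library per group cannot show.

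The members share a compact gene structure that the choice by name did not use. Annotated transcripts were 1820 to 3540 bases long, with 1 to 5 exons. JUN, JUNB and JUND have 1 exon, EGR1, IER2 and BTG2 have 2, and MYC, FOS, CYR61 and CTGF have 3 to 5. Across protein-coding genes the ratio moved with exon number. The median ratio was -0.21 over 190 genes with 1 exon, -0.28 over 356 genes with 2, -0.21 over 2048 genes with 3 to 5, and 0.27 over 7919 genes with 6 or more. Without histone genes the single-exon median was -0.36 over 138 genes, and without mitochondrially encoded genes it was -0.18 over 177 genes. The rank correlation of ratio and exon number over coding genes was 0.57. It is a description across genes, which share the libraries and are not replicates.

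Most of the 10 mRNAs stood above genes built like them. Of the members, 9 lay above the median of their own exon class and BTG2 below it, with a median distance of 0.68. FOS and CYR61 lay at percentiles 99.6 and 99.7 of the genes with 3 to 5 exons, CTGF at 95.4 and MYC at 94.4. JUNB lay at 95, JUND at 89.7 and JUN at 82.9 of the single-exon genes, and IER2 at 86.4 and EGR1 at 57.4 of those with 2 exons. BTG2 lay at 12.5. Among the 2594 coding genes with 1 to 5 exons, 18 (0.69%) passed 2-fold upwards, and FOS and CYR61 were among these 18. Others of the 18, chosen after their values were seen, were the cyclin CCND1 (29.6 FPKM in RIP against 14.2 FPKM in INPUT), which drives entry into the cell cycle, and the proteoglycan SDC2 (47.2 FPKM in RIP against 22.6 FPKM in INPUT). At the 1.5-fold limit 106 of the 2594 (4.09%) were higher, among them the 3 members already named.

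**Figure D3:**
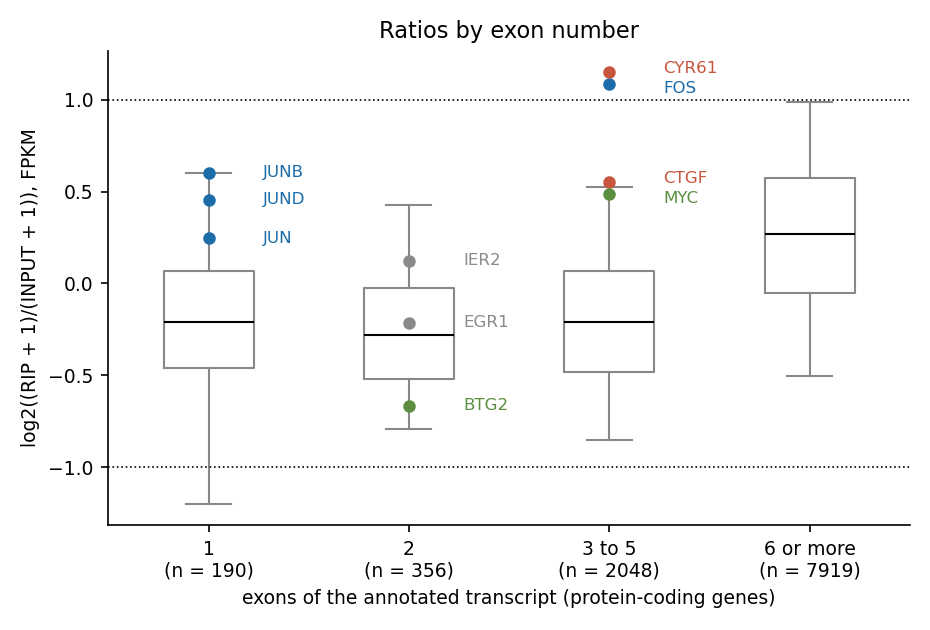
Log2 ratio of RIP to INPUT by number of exons in the annotated transcript of protein-coding genes, with the 10 mRNAs as coloured points. Boxes span the quartiles with the median, whiskers the 5th to 95th percentile, and dotted lines mark 2-fold. Genes with 1 to 5 exons have medians from -0.28 to -0.21. CYR61 and FOS lie well above the whisker of their class, CTGF lies just past it, and JUNB lies about at the end of its own.

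By length and base composition the members also lay mostly above genes like them, by a median of 0.37 for length and 0.20 for GC content. By quintiles of spliced length, 7 members lay in the second and 3 in the third, and 8 of 10 were above the median of their quintile (0.10 and 0.18), with EGR1 and BTG2 below. By GC content all 10 lay in the upper 3 quintiles, from 50.3% (BTG2 and CYR61) to 69.7% (JUND), where medians were 0.12 to 0.30, and 7 of 10 were above. The third below the median on that measure was IER2, which has 62.9% GC. By level, the mean of log2(FPKM + 1) over both libraries, 5 members lay in the highest quintile, 4 in the fourth and 1 in the second. On that measure 7 of 10 were above the median of their quintile, by a median of 0.24 over the members, with EGR1, BTG2 and IER2 below. Among coding genes of 1800 to 3600 bases, limits set around the members' own lengths, the median ratio was -0.19 for 926 genes with up to 5 exons and 0.24 for 2954 with more. In that length range 4 of the 926 were at least 2-fold higher, CYR61 and FOS among them.

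The AU-rich pentamer was present in the annotated 3′ UTR of 9 of the 10 members, IER2 being the exception. It was present in 71.2% of 10412 coding genes with an annotated 3′ UTR, and in 77.1% of the 4828 whose 3′ UTR had 450 to 2200 bases, the range around the members' own. Pooled over all bases of their 3′ UTRs, the members held 2.55 pentamers per kilobase and coding genes 2.38. By gene, coding genes were cut into 5 groups of rising density, and 4 members (FOS, JUNB, CYR61 and MYC) lay in the densest. The other groups, from the lowest up, held 1, 2, 2 and 1 members. FOS alone held the nonamer, which was found in 6.1% of the 4828. FOS and CYR61 had 5 pentamers each, MYC 4, JUN and CTGF 3, JUNB and BTG2 2, and JUND and EGR1 1. Pentamers were searched on the transcript strand, overlapping ones counted separately.

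Within the set the ratio tended to be higher at a higher pentamer density, whereas over coding genes the relation was weak and of the opposite sign. The 2 members with 5 pentamers had the 2 highest ratios, and the 2 with the lowest ratios, BTG2 and EGR1, had 0.92 and 0.81 per kilobase. MYC had the highest density, 8.40 per kilobase, with a ratio of 0.49, and IER2, without a pentamer, had a ratio of 0.12. The rank correlation of ratio and density over the 10 members was 0.81, and over the 10412 coding genes it was -0.14. With the number of pentamers in place of the density it was 0.72 over the members and -0.13 over the coding genes. The 10 points share both libraries and differ in length, exon number and 3′ UTR length as well. The rank correlation with 3′ UTR length, by which the density is divided, was -0.61 over the same 10. Among coding genes with 3′ UTRs of 450 to 2200 bases the median ratio was 0.22 without a pentamer (1104 genes), 0.16 with 1 or 2 (1805 genes), 0.08 with 3 or 4 (947 genes) and 0.01 with 5 or more (972 genes).

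**Figure D4:**
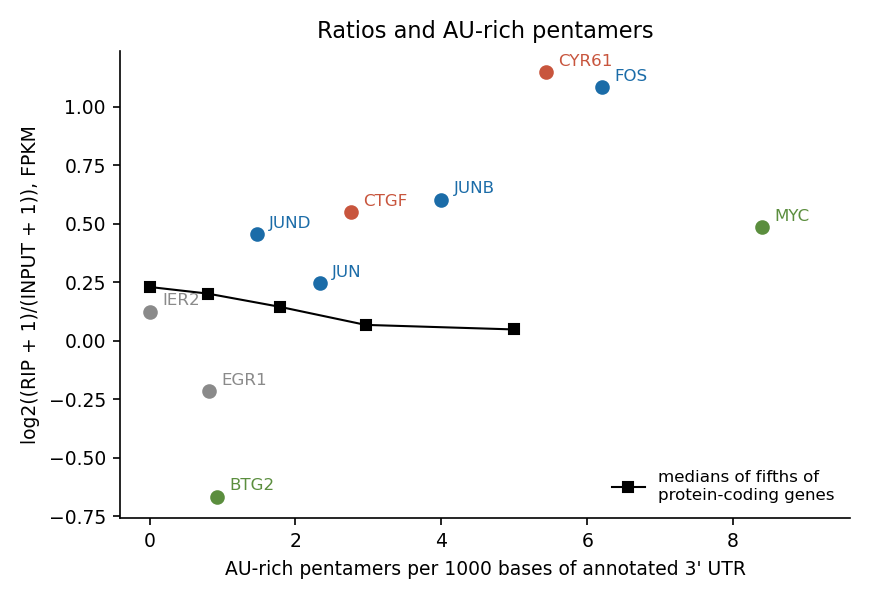
Log2 ratio of RIP to INPUT against the number of AU-rich pentamers per kilobase of annotated 3′ UTR for the 10 mRNAs (coloured points). Black squares are medians of protein-coding genes cut at the quintiles of density, placed at the median density of each group. The groups are unequal through ties at 0, with 2997 genes without a pentamer in the first and 1170 genes in the second. Most members run upward from BTG2 and EGR1 to CYR61 and FOS. IER2, at a density of 0, lies above BTG2 and EGR1, JUND lies above JUN at a lower density, and MYC is apart at 8.40. The squares run from 0.23 down to 0.05.

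Related genes of the same pathways had a lower median ratio than the 10 mRNAs. Both the 10 mRNAs and these lists were chosen with earlier results of these data known, so the contrast is a description only. Over 10 further lists, 111 of 133 listed genes were in the table and 104 were past the floor. Of these 104, 2 were at least 2-fold higher and 0 lower, where 4.90% of all genes were higher and 2.50% lower. Of their ratios, 63 were above 0 and 41 below, and the median was 0.11. Of the 11990 genes tested, 7040 were above 0 and 4941 below. The genes at least 2-fold higher were NR4A2, an orphan nuclear receptor induced early (9.33 FPKM in RIP against 2.94 FPKM in INPUT), and TNFAIP3, an inhibitor of NF-κB signalling (16.1 FPKM in RIP against 6.60 FPKM in INPUT).

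Other AP-1 subunits had a median ratio of 0.15 over 9 genes, of which 0 passed the 2-fold limit. Of all genes, 4.90% passed it upwards and 2.50% downwards. The stress-induced ATF3 was the most abundant of this list in RIP, at 298 FPKM in RIP against 182 FPKM in INPUT, with a ratio of 0.71. The small MAF protein MAFK had 0.86, at 16.6 FPKM in RIP against 8.70 FPKM in INPUT. ATF4, the integrated stress response factor, and ATF7 had -0.20 and -0.14. The median of this list came to -0.02 with libraries scaled to protein-coding sums and to 0.27 with a floor of 20 FPKM.

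The 11 other early-response transcription factors past the floor had a median ratio of 0.27, which came to -0.02 with a floor of 20 FPKM. NR4A2 had 1.39 and the zinc-finger factor KLF4 0.72, while KLF10 and the helix-loop-helix inhibitor ID3 had -0.28 and -0.25. Early-response signalling and feedback genes had a median of 0.28 over 23 genes, with 1 at least 2-fold higher, where 4.90% of all genes were. TNFAIP3 had 1.17 and the clock gene PER2 0.87, while the FGF signalling inhibitor SPRY1 had -0.49. The small GTPase RHOB had -0.39, at 76.4 FPKM in RIP against 100.3 FPKM in INPUT. PER2 (6.09 FPKM in RIP against 2.87 FPKM in INPUT) and SPRY1 (3.43 FPKM against 5.21 FPKM) lay near the floor of 5 FPKM.

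Proteins that bind AU-rich elements had a median of 0.05 over 8 mRNAs, none past 2-fold in either direction. Of all genes, 4.90% passed that limit upwards and 2.50% downwards. TIAL1, a translational silencer, stood at 116 FPKM in RIP against 62.7 FPKM in INPUT, a ratio of 0.88, and KHSRP, a decay-promoting factor, had 0.64. The decay factors ZFP36 and ZFP36L2 had -0.25 and -0.41, at 6.0 FPKM or less in the RIP and 8.33 FPKM or less in the INPUT. The median of this list came to -0.07 after centring on the median gene and to 0.29 with a floor of 20 FPKM.

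The relatives of BTG2 were, like BTG2 itself, lower in RIP. All 4 measured relatives had ratios below 0, where 4941 of the 11990 genes tested did. The relatives had a median of -0.23 that stayed below 0 under each scaling tried. They were TOB1 (-0.51, 10.3 FPKM in RIP against 15.0 FPKM in INPUT), BTG3 (-0.27), BTG1 (-0.18) and TOB2 (-0.13). None was 2-fold lower, where 2.50% of all genes were. Over the 2594 coding genes with 1 to 5 exons the median ratio was -0.22, near that of these relatives, whose own exon numbers were not compared. Other p53 targets had a median of -0.12 over 10 genes, or -0.25 with a floor of 20 FPKM, with 6 of the 10 below 0. The ribonucleotide reductase subunit RRM2B had -0.78, at 11.7 FPKM in RIP against 20.8 FPKM in INPUT, and the cell cycle inhibitor CDKN1A -0.42, while the apoptosis gene BBC3 had 0.29 and the phosphatase PPM1D 0.16.

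YAP/TEAD factors and their other targets had a median of 0.04 over 12 genes. None reached 2-fold, where 4.90% of all genes were at least 2-fold higher and 2.50% lower. Of the members induced by this pathway, CYR61 had 1.15 and CTGF 0.55, the latter within the range of the list. The angiomotin genes AMOTL2 and AMOTL1, which restrain YAP, had 0.58 and 0.41, and TEAD1 and VGLL4 had -0.28 and -0.15. The other CCN family genes gave no values here. In the MYC family and MAX network 8 of 9 ratios were above 0, as were 7040 of the 11990 genes tested. The median of that network was 0.25, or 0.18 with a floor of 20 FPKM, and none of the 9 passed 2-fold. MLXIP and MXD3 had 0.57 and 0.52, while MNT had 0.11 and MAX, the obligate partner of MYC, had -0.08. Upstream kinases and serum response factors had a median of 0.06 over 18 genes, none past 2-fold. RPS6KA4, a kinase that phosphorylates histone H3 at early genes, had 0.74, at 7.96 FPKM in RIP against 4.37 FPKM in INPUT. The SRF coactivator MKL1 had 0.62, while the SRF partners ELK3 and ELK1 had -0.60 and -0.24. The medians of the YAP/TEAD list and of this upstream list turned below 0 after centring on the median gene, and that of the YAP/TEAD list came to 0.17 with a floor of 20 FPKM.

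**Figure D5:**
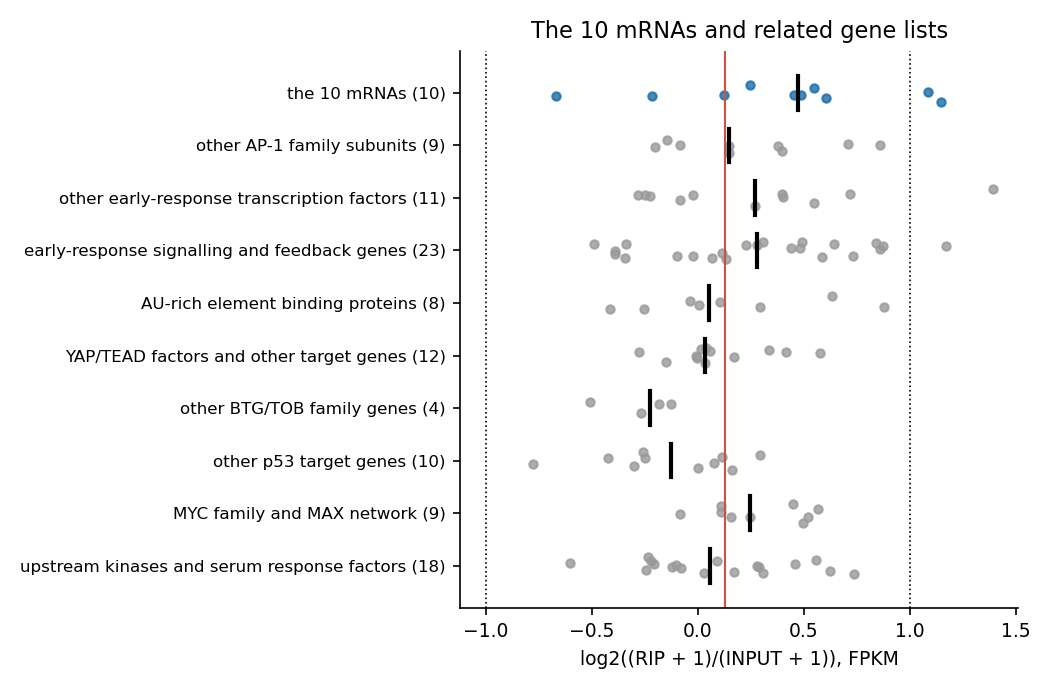
Log2 ratio of RIP to INPUT of each gene past the floor in the 10 mRNAs (top row, blue) and in the related lists (grey), with the number of genes in brackets, black bars for list medians, a red line at the median of all genes tested (0.13) and dotted lines at 2-fold. The bar of the 10 mRNAs lies at 0.47, and all points of the BTG/TOB family lie below 0.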

How the data were processed

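RIP sequencing was done in 1 RIP and 1 INPUT library of HEK293 cells. Per the submitters' processing notes the tools were cutadapt 1.18, Trimmomatic 0.3, STAR 2.6.1 and RSEM 1.2.31 with the build hg38. How these were set, which annotation was used and how low genes were removed is not given in the sources used here. No unit stands in the table the authors deposited. The deposited values were taken as FPKM because they carry decimals and sum to 1090243 (RIP) and 1512049 (INPUT). FPKM is scaled to each library's own total, so abundant RNAs lower all other values of that library.

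Ratios used a pseudocount of 1 and a floor of 5 FPKM in at least 1 library, which 11990 genes passed. With no replicates, no test was run. Fragment numbers were estimated by searching for the depth and mean fragment length (168 bases in the RIP, 165 in the INPUT) that gave whole fragments for genes with 1 transcript. Of 189 and 323 genes used, 68.3% and 63.2% lay within 0.15 of a whole number, so the depths are estimates. Multiples of a depth fit as well, and the smallest depth that came near the best fit was taken. The fragment numbers and counting intervals rest on that choice. Transcript features came from GENCODE release 29 by Ensembl ID for 12983 genes (99.3%), using 1 principal coding transcript per gene. Scripts were checked on simulated data. Alternatives were other pseudocounts, floors, fold limits and scalings. TMM and DESeq2 scaling were planned only for counts and were not run. The members and the lists were chosen with earlier results of these data known. Named genes are the members, TOP3B, and up to 2 highest and 2 lowest per list, unless stated otherwise. With 2 libraries, no genes were named by likeness of pattern. Python 3.11.15, numpy 2.4.6, pandas 2.3.3, scipy 1.17.1 and matplotlib 3.10.9 were used.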

Additional observations from a re-analysis of the deposited data

How the results depend on the processing

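No paired analysis was possible because RIP and INPUT had 1 library apiece. The members' median of 0.47 ranged from 0.29 to 0.48 over the other settings. The 2 members at least 2-fold higher became 1 after centring on the median gene, and 0 with libraries scaled to protein-coding sums, 0 with scaling to upper quartiles and 0 at the 4-fold limit. The count of members lower was 1 at the 1.5-fold limit and 0 under the other settings. The YAP/TEAD median was -0.092 after centring, -0.129 with protein-coding sums and -0.137 with upper quartiles, and the MYC network median was 0.075 with protein-coding sums and 0.067 with upper quartiles. Against 588 higher and 300 lower among all genes, pseudocount 5 gave 300 and 180, a floor of 20 FPKM 352 and 157, centring 365 higher, protein-coding sums 312 and 501, upper quartiles 303 and 517, the 1.5-fold limit 2386 and 1222, and the 4-fold limit 79 and 84. Protein-coding genes alone, chosen after seeing the data, gave 384 and 56. These shifts follow from the settings themselves. Of the ratios of single members, 23 stayed within their counting interval and 27, all under the 3 scalings, moved beyond it, and IER2 alone changed sign. Depth limited the members little, and the missing replicates limit every comparison.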
